A study of Homo sapiens with 6 samples.

Results

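The genes that write and erase methyl groups on histone lysines were followed in MDA-MB-231 cells, a mesenchymal-like human breast cancer line without hormone receptors, after transfection with a plasmid for ABI2. Members were the rows of the deposited table named KDM, KMT or SETD with a number or the letter B, together with EZH1, EZH2, EHMT1, EHMT2 and NSD1 to NSD3. This gave 46 of 20260 genes, of which 26 belong to the SET-domain methylase side and 20 are demethylases. After the filter on low counts 43 were tested, and KDM4E, KDM4F and KDM5D were not. Every sample was the same line, and the plasmid was the only stated difference between the groups. The 3 control libraries came from cells given an empty vector, and the 3 ABI2 libraries came from cells given the ABI2 plasmid. Whether replicates of a group came from different cultures is not stated in the labels, and p-values therefore cover only the scatter among these 6 samples, part or all of which may be technical. Plasmid transfection raises a gene in the cells that take up the plasmid, and a bulk library cannot tell a change in every cell from a larger change in some of them, or fewer cells of a kind from less RNA per cell.

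Histone lysine methylases of the SET-domain family transfer a methyl group from S-adenosylmethionine to a chosen lysine. Methyl groups on lysine 4 and lysine 36 of histone H3 mark active promoters and transcribed gene bodies, while those on lysine 9 and lysine 27 of H3 and on lysine 20 of H4 go with silenced or compacted chromatin. Demethylases remove them, either with a flavin cofactor (KDM1A and KDM1B) or through a JmjC domain that needs iron, oxygen and oxoglutarate. Many of these enzymes come as paralogs of overlapping activity, and several, such as EZH2, KMT2C, KMT2D and KDM6A, are recurrent targets of mutation or overexpression in cancer.

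ABI2 itself rose from 82.5 ± 1.20 to 222.1 ± 2.27 CPM on transfection (counts per 1e6 counts after TMM scaling, SD, n = 3 each; log2 fold change 1.43, edgeR adjusted p = 1.23e-05). Library totals ran from 38453152 to 40309690 counts. The 8 mesenchymal markers of the line summed to 5302 to 5493 CPM in the controls and 6529 to 6730 CPM with ABI2; 4 were higher and 2 were lower, ZEB1 at a log2 fold change of -2.28 and CAV1 at -0.89. CDH1 and PGR had no count in any library. Of 8 luminal and hormone receptor markers, 5 were tested and 3 were higher (ERBB2, GATA3 and KRT19); summed over the list they came to 95.8 to 108.8 CPM in the controls and 157.5 to 175.8 CPM with ABI2. Among the blood cell markers, PTPRC and CD3E had no count in any library, and CD14 was tested, at 1.16 ± 0.26 CPM in the controls and 1.77 ± 0.11 CPM with ABI2. The part of these markers in the results below was not tested. Across all 13325 tested genes the edgeR test called 35.1% higher and 38.0% lower in the ABI2 libraries, so a call by itself is common here. The fold change also followed the base composition of the transcript: when the genes were put in 10 equal bins by GC content, 92.6% of the most AT-rich bin were lower and 73.8% of the most GC-rich bin were higher. For this reason the fold changes of the members, given first without correction, are followed further down by those of a fit that corrects for GC content and of one that corrects for GC content and length. The correction removes a trend over all genes whatever its source, and the source of the trend was not tested.

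The members differ widely in base composition, and 4 pairs of paralogs show this at a site that they share. Translation of the longest coding sequence of each SET-domain member found, once in 19 of 26 genes, the signature run of the catalytic SET domain that begins with asparagine and histidine and ends with proline and asparagine. The coding windows of 75 bases around it are shown for 4 pairs of paralogs that this report returns to. The 7 codons of the run are in capitals. The sequences are from GENCODE release 29 on GRCh38, 5′ to 3′ on the coding strand; where a window crosses an exon junction, the coordinates span the intron as well.
KMT2A (chr11:118521951-118522025, plus strand): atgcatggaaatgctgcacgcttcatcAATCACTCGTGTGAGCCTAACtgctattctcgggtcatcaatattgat
KMT2B (chr19:35738336-35738410, plus strand): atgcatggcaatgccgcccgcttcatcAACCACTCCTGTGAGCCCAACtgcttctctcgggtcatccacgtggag
KMT2C (chr7:152138850-152139205, minus strand): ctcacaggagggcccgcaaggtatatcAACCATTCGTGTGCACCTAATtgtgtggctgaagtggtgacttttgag
KMT2D (chr12:49022097-49022299, minus strand): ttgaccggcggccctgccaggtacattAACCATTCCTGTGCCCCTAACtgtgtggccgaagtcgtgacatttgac
SETDB2 (chr13:49488601-49490866, plus strand): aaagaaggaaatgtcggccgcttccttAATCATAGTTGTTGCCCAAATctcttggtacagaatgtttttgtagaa
SETDB1 (chr1:150963712-150964039, plus strand): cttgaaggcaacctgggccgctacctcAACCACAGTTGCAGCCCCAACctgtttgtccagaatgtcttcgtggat
KMT5B (chr11:68171131-68171576, minus strand): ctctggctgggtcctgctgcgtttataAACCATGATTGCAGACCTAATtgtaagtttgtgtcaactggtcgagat
KMT5C (chr19:55343810-55346233, plus strand): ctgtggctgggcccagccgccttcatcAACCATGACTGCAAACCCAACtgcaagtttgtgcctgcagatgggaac

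In KMT2A and KMT2B, 3 of the 7 capital codons differ and none of the differences changes the residue. The same holds for KMT2C and KMT2D, with 3 of 7 codons different and 0 residues changed. Between KMT5B and KMT5C, 4 codons differ and 1 residue changes, and the 21 bases hold 8 and 10 G or C. Between SETDB2 and SETDB1, 6 of the 7 codons differ, 5 of them without a change of residue, and the same stretch holds 7 G or C in SETDB2 and 12 in SETDB1. Over the whole window the GC content was 44.0% in KMT2A and 58.7% in KMT2B, and 45.3% in KMT5B and 57.3% in KMT5C. Not every pair of paralogs went this way, and the families were chosen after the fold changes were seen. The EHMT1 window had 62.7% GC and the EHMT2 window 53.3%, although EHMT2 has the GC-richer transcript (60.9% against 57.3%). The windows of the 10 members that were lower in the ABI2 libraries had 36 to 50.7% GC, and those of the 7 that were higher had 53.3 to 62.7%, so the ranges did not overlap.

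The members as a group took a smaller share of the counts after ABI2 transfection. They held 0.2369, 0.2423 and 0.2300% of all counts in control libraries 1 to 3, against 0.1967, 0.1933 and 0.1857% in ABI2 libraries 1 to 3. Their summed TPM, a level per transcript length, was 886.33, 818.96 and 841.87 in the controls and 710.90, 703.10 and 668.14 with ABI2. Neither measure overlapped between the groups. By edgeR, 14 of the 43 tested members were higher and 21 were lower, and 8 did not pass. The members' median log2 fold change was -0.23, against -0.01 over all tested genes. The share called higher, 14 of 43, lies near the background of 35.1%, and the share called lower is above the background of 38.0%. By values alone, the CPM of the ABI2 libraries lay above those of all controls in 13 members and below them in 22, where the background was 37.8% and 40.1% of genes. A fall of at least 2-fold was found in 16 of 43 members, against a background of 24.9%. Scaling by library size without TMM moved the median of all genes by -0.097 and left 8 members higher and 22 lower, and the TPM values gave 8 higher and 23 lower.

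**Figure D1:**
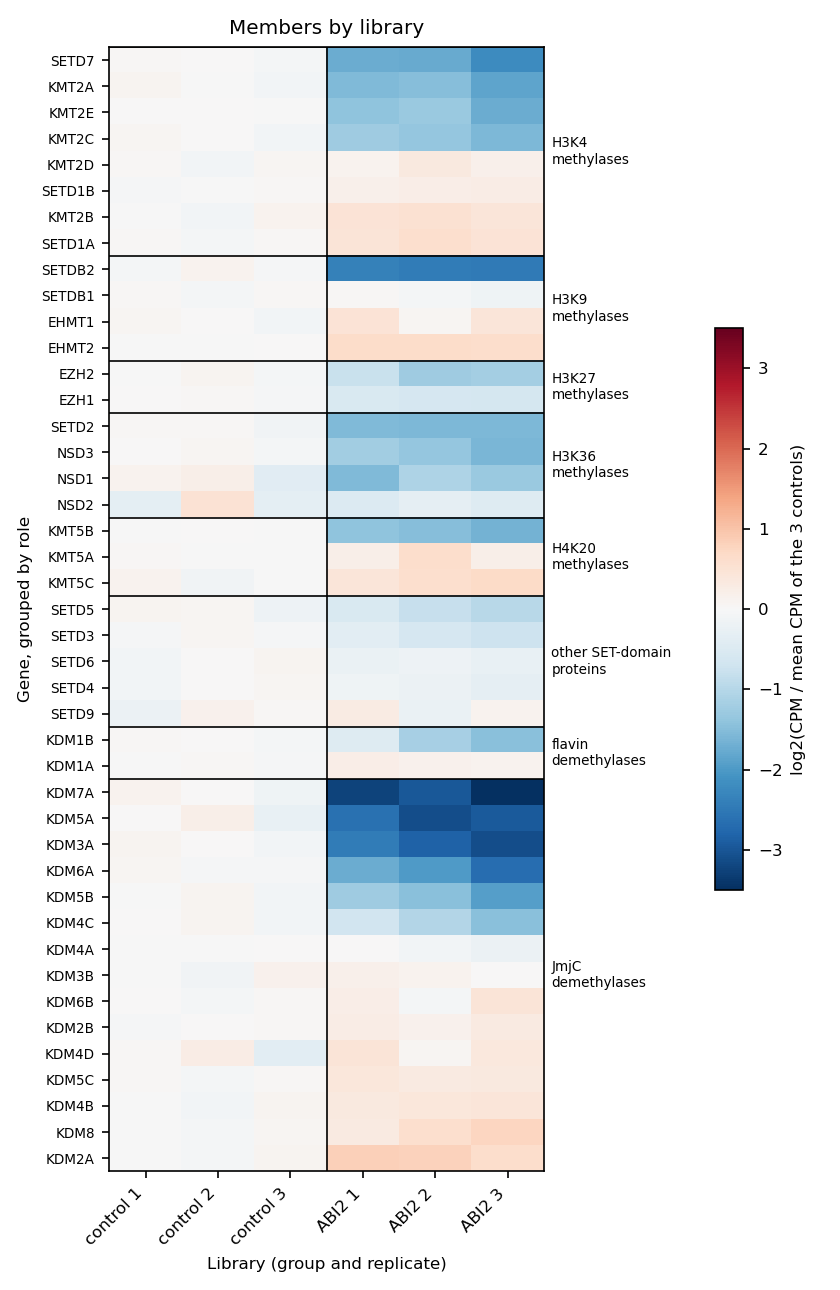
Each cell is the log2 ratio of a library's CPM to the mean CPM of the 3 control libraries, for the 43 tested members grouped by role (rows) in the 6 libraries (columns); blue is below and red is above the control mean. KDM7A, KDM5A and KDM3A are the deepest blue in all 3 ABI2 libraries, KDM2A is the reddest, and NSD2 in control library 2 stands above the other controls.

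The methylases of histone H3 lysine 4 split evenly, 4 higher and 4 lower of 8. This count and the further counts by role rest on few genes, and over all tested genes 35.1% were higher and 38.0% lower. KMT2A, the mixed-lineage leukaemia methylase, had 79.7, 73.3 and 69.5 CPM in control libraries 1 to 3 and 25.7, 26.5 and 20.5 CPM in ABI2 libraries 1 to 3. All ABI2 libraries were far under all controls, and the log2 fold change was -1.62 ± 0.11 (SE, edgeR adjusted p = 2.53e-05), a 3.06-fold fall. KMT2B, its closest paralog, went the other way, from 45.9, 43.4 and 50.4 CPM to 64.5, 67.3 and 62.8 CPM. The groups were again apart, at a log2 ratio of 0.48 ± 0.07 (SE, edgeR adjusted p = 0.000841).

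KMT2C and KMT2D, which place the single methyl group of enhancers, repeated this split. KMT2C fell from 31.7, 30.0 and 28.2 CPM to 12.6, 11.8 and 10.1 CPM, a 2.61-fold fall (edgeR adjusted p = 3.55e-05). KMT2C has near-identical copies of part of its sequence elsewhere in the genome, so its counts are uncertain. KMT2D was at 86.2, 78.7 and 88.6 CPM in the controls and 91.3, 106.9 and 96.1 CPM with ABI2, so that the groups lay close together. Its log2 fold change was 0.22 ± 0.08 (edgeR adjusted p = 0.0409), and the call was lost without control replicate 1 or 2 or ABI2 replicate 2 or 3 (adjusted p from 0.056 to 0.126). KMT2D shares positions on the same strand with PRKAG1, whose reads could be counted with it. KMT2B, SETDB1, KDM2B, KDM5A, SETD4, SETD6 and SETD9 overlap a gene on the opposite strand.

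The other H3K4 members divided in the same manner. SETD7, a small methylase that also acts on proteins other than histones, dropped 3.68-fold, from 104.0, 102.0 and 95.6 CPM to 30.3, 29.6 and 22.0 CPM (edgeR adjusted p = 2.37e-05). KMT2E, a SET-domain relative thought to bind rather than write the mark, dropped 2.77-fold. SETD1A and SETD1B, the subunits that carry the bulk of promoter H3K4 trimethylation, were higher by 0.52 and 0.22 on the log2 scale. The SETD1B call was lost without control replicate 1 (adjusted p = 0.0653) or ABI2 replicate 2 (adjusted p = 0.0532).

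The H3K9 methylases also parted by gene. EHMT2 (G9a), which places the mono- and dimethyl mark in euchromatin, had 139.0, 140.1 and 142.2 CPM in the controls and 218.4, 219.8 and 216.3 CPM with ABI2, a 1.55-fold rise (edgeR adjusted p = 2.04e-05). The replicates lay close together, and the SE of the log2 fold change, 0.04, was the smallest of the 14 rises. EHMT1, its obligate partner, passed at a log2 fold change of 0.33 (adjusted p = 0.0331), but ABI2 library 2, at 59.0 CPM, lay below control library 1, at 59.3 CPM. Without control replicate 2 or 3 or ABI2 replicate 1 or 3 the EHMT1 call was lost (adjusted p from 0.0652 to 0.107). SETDB2 fell 5.40-fold, from 7.44, 8.44 and 7.56 CPM to 1.52, 1.42 and 1.40 CPM (edgeR adjusted p = 1.38e-05). SETDB1, the trimethylase that silences retroelements, was at 34.1, 31.4 and 33.8 CPM against 33.7, 31.7 and 29.7 CPM and did not pass (adjusted p = 0.505).

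Both H3K27 methylases, the alternative catalytic subunits of Polycomb repressive complex 2 (PRC2), were lower. EZH2, the form of dividing cells, went from 68.2, 73.4 and 65.4 CPM to 40.1, 28.9 and 30.0 CPM, a 2.09-fold fall (edgeR adjusted p = 0.000301). EZH1 went from 37.9, 38.3 and 36.1 CPM to 26.0, 25.1 and 24.4 CPM, a 1.49-fold fall (adjusted p = 0.000218). Per transcript length, EZH2 was the more abundant in both groups, at 42.6 ± 1.97 TPM against 15.4 ± 0.82 TPM for EZH1 in the controls and 19.99 ± 3.99 TPM against 9.65 ± 0.20 TPM with ABI2 (SD, n = 3 each).

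Of the 4 H3K36 methylases, 3 fell and none rose, where 38.0% of all tested genes were lower. NSD3 and SETD2 lay in GC bin 3 of 10, where 77.2% of all tested genes were lower. With GC and length correction, 1 of the 4 was higher and 0 were lower. SETD2, the enzyme of H3K36 trimethylation behind RNA polymerase II, had 28.8, 28.8 and 25.7 CPM in the controls and 9.56, 9.29 and 9.29 CPM with ABI2, a 2.96-fold fall (edgeR adjusted p = 1.51e-05). NSD1, a dimethylase of the same lysine, fell 2.46-fold, from 51.2, 53.8 and 35.7 CPM to 16.1, 22.0 and 19.1 CPM. NSD3, a further dimethylase, fell 2.59-fold, from 56.0, 58.6 and 52.9 CPM to 24.2, 22.0 and 18.4 CPM. NSD2 did not pass on counts and is described with its TPM values below.

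Among the H4K20 methylases, KMT5B dropped 2.84-fold, from 10.1, 10.4 and 10.1 CPM to 3.83, 3.65 and 3.26 CPM (edgeR adjusted p = 2.75e-05). KMT5C, the paralog that shares its di- and trimethylation activity, rose 1.47-fold, from 10.96, 9.23 and 10.06 CPM to 13.5, 15.1 and 16.1 CPM (adjusted p = 0.00313). KMT5A, which places the first methyl group, was higher by 0.36 on the log2 scale, with ABI2 library 2 at 54.92 CPM and the other 2 at 41.03 and 41.05 CPM. Its call was lost without any single control replicate (adjusted p from 0.0661 to 0.0843).

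Of the 5 remaining SET-domain members, 3 were lower and 2 did not pass. SETD5 fell 1.69-fold, SETD3, the histidine methylase of actin, fell 1.47-fold, and SETD6 fell 1.17-fold. SETD6 lost its call without control replicate 2 or 3 or any ABI2 replicate (adjusted p from 0.0557 to 0.0957). SETD4 and SETD9 did not pass (adjusted p = 0.0875 and 0.723).

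The flavin demethylases were divided. KDM1A (LSD1), the H3K4 demethylase of the CoREST complex, was at 81.9, 85.8 and 81.3 CPM in the controls and 97.7, 91.4 and 90.5 CPM with ABI2, higher by 0.17 on the log2 scale (edgeR adjusted p = 0.0295). That call was lost without control replicate 1 or 3 or ABI2 replicate 1 or 2 (adjusted p from 0.0526 to 0.0915). KDM1B, its paralog, fell 1.94-fold, from 27.5, 26.8 and 25.4 CPM to 19.5, 12.0 and 9.69 CPM, with a wide spread within the ABI2 group (adjusted p = 0.0114).

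The JmjC demethylases held both ends of the range. Of the 15 tested, 5 were higher, 6 were lower and 4 did not pass. KDM7A (chromosome 7, 140084746 to 140177035, minus strand, GRCh38), which acts on dimethylated H3K9 and H3K27, went from 7.82, 7.19 and 6.41 CPM to 0.75, 0.92 and 0.45 CPM, a 10.10-fold fall (edgeR adjusted p = 3.03e-05). It was a low-level gene, at 1.37 ± 0.19 TPM in the controls and 0.118 ± 0.04 TPM with ABI2. KDM5A (chromosome 12, 280129 to 389454, minus strand), an H3K4 demethylase first known as a binder of the retinoblastoma protein, went from 32.8, 37.7 and 27.5 CPM to 5.35, 3.81 and 4.29 CPM, a 7.29-fold fall (adjusted p = 1.76e-05).

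KDM3A (chromosome 2, 86440647 to 86492716, plus strand), an H3K9 demethylase induced by hypoxia, had the third-deepest fall. It was at 110.4, 105.3 and 96.9 CPM in the controls and 19.3, 14.6 and 12.2 CPM with ABI2 (6.80-fold lower, edgeR adjusted p = 2.14e-05). Per length this was 36.6 ± 4.83 TPM against 4.21 ± 0.37 TPM. KDM3B, its paralog, was at 63.5, 58.9 and 71.1 CPM against 72.4, 69.8 and 65.4 CPM and did not pass (adjusted p = 0.305). KDM6A (UTX), the X-linked H3K27 demethylase, fell 4.24-fold, from 23.9, 22.4 and 22.4 CPM to 6.81, 5.78 and 3.61 CPM. KDM6B (JMJD3), of the same specificity, did not pass (adjusted p = 0.164).

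KDM2A (chromosome 11, 67119269 to 67258087, plus strand), an H3K36 demethylase that binds unmethylated CpG DNA, had the largest rise of any member. It was at 48.9, 47.1 and 53.3 CPM in the controls and 88.4, 86.4 and 76.8 CPM with ABI2, a 1.68-fold rise (log2 fold change 0.75 ± 0.08, edgeR adjusted p = 0.000129). In CPM the lowest ABI2 library was well above the highest control. In TPM the gap was small, with ABI2 library 3 at 20.73 and control library 3 at 19.44. The other JmjC members that rose were KDM5C, the X-linked paralog of KDM5A that also acts on H3K4, by 1.27-fold from 194.4, 181.0 and 196.0 CPM to 249.5, 236.6 and 242.5 CPM, and KDM8, KDM4B and KDM2B, by 1.47-, 1.31- and 1.18-fold. KDM5B, an H3K4 demethylase often abundant in breast tumours, fell 2.85-fold. KDM4C fell 2.02-fold, and KDM4A and KDM4D, like KDM4B and KDM4C demethylases of trimethylated H3K9, did not pass.

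The members' spread within the ABI2 group was wider than within the controls. The SD of the CPM was at the median 5.8% of the mean over the members in the controls and 11.2% with ABI2. Among the 21 members that were lower, ABI2 library 3 was the lowest of the ABI2 libraries in 17 and ABI2 library 1 the highest in 16. Neither the spread nor this order was computed over all tested genes, so neither can be called a trait of the members. Leaving out any single library left 20 or 21 members lower and 10 to 12 higher.

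The direction of the members followed the GC content of their transcripts. The 14 members that were higher had a median GC content of 58.8% (50.8 to 66.1%), and the 21 that were lower had 45% (38.5 to 57.4%). In GC bins 1 to 5, the AT-rich side, there were 22 members, of which 19 (86.4%) were lower and 0 higher. Of all tested genes in those bins 70.9% were lower and 6.5% higher. In bins 6 to 10 there were 21 members, of which 14 (66.7%) were higher and 2 (9.5%), EZH1 and SETD6, were lower. Of all tested genes in those bins 63.8% were higher, so the members' share lay near it, and 5.0% were lower. Over the 43 members the rank correlation of log2 fold change with GC content was 0.87, and over all tested genes it was 0.79. These are descriptions across genes that share the same 6 libraries. Members were also long, with 24 of 43 in the 2 longest of 10 equal bins of transcript length, and the rank correlation of fold change with length was -0.36 in the members and -0.37 over all genes.

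**Figure D2:**
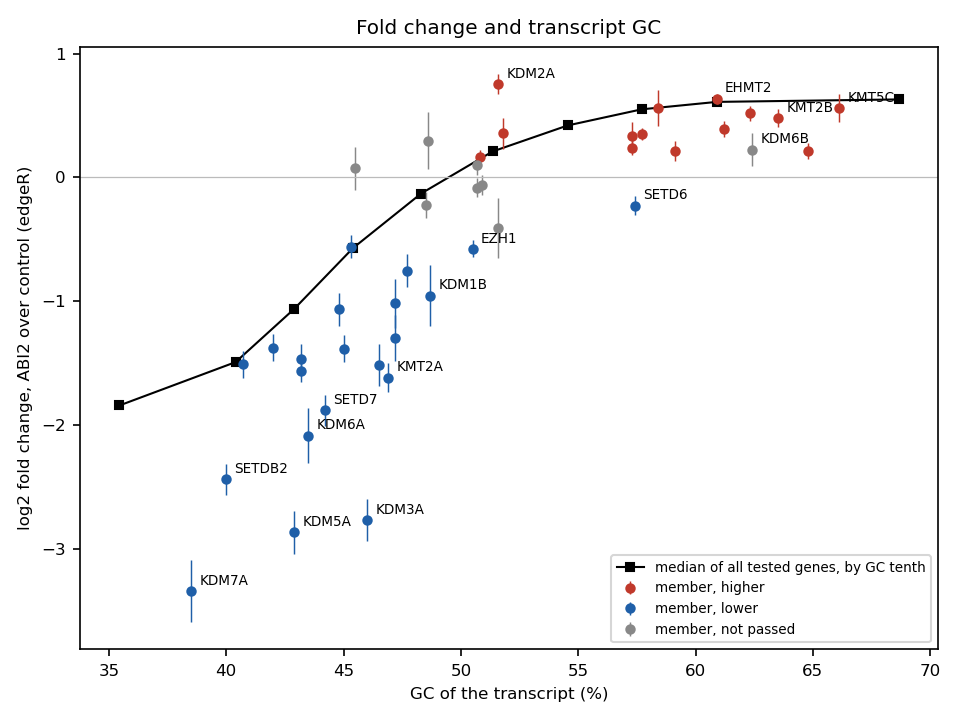
Log2 fold change of each tested member (points, bars are SE) against the GC content of its transcript in percent; red points were called higher, blue lower, and grey did not pass. The black line joins the medians of all tested genes in 10 bins of GC content, from -1.84 in the lowest to 0.63 in the highest, and 36 of the 43 members lie under the median of their bin.

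Paralogs showed the same order. In 14 families with 23 pairs of tested members, the paralog with the higher GC content had the higher fold change in 20 pairs. The families were chosen after the fold changes were seen, and pairs within the larger families share genes. How often pairs of any tested genes show this order was not computed. KMT2A and KMT2B, at 46.9% and 63.5% GC, differed by 2.09 on the log2 scale. KDM5A, KDM5B and KDM5C, at 42.9%, 46.5% and 57.7%, had log2 fold changes of -2.87, -1.51 and 0.35. The 3 exceptions were SETD1A with SETD1B, KDM2A with KDM2B, and KDM4D with KDM4A. After GC correction the order held in 14 of the 23 pairs, with KMT5B and KMT5C at -0.03 and -0.04, while KDM3A lay 2.22 below KDM3B.

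**Figure D3:**
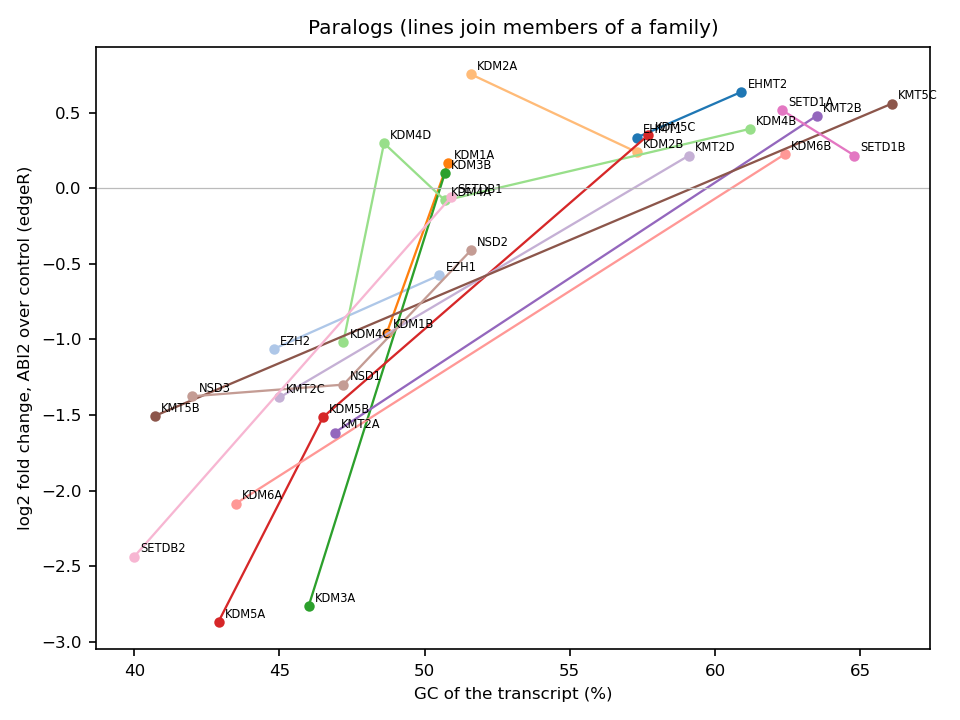
Log2 fold change against transcript GC content in percent for the paralog families; lines join the members of a family. Lines rise to the right in 11 families without exception, and KDM2A with KDM2B, SETD1A with SETD1B and KDM4D with KDM4A fall.

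The same split was not seen in the promoters. Promoters of 300 bases, from 250 before to 50 after the start of transcription (RefSeq, GRCh38.p14), were found for 43 of the 46 members. These 43 include KDM4F and KDM5D, which were not tested. The median GC content was 65.0% for 13 members that were higher and 68.0% for 20 that were lower, against 65.3% over the tested genes. None of the 43 held TATAAA on either strand. Of the tested genes' promoters 5.5% did, so a count of 0 in 43 lies near that share. The promoters of KMT2A and KMT2B are shown because their transcripts moved in opposite directions and differ in GC content by 16.6 points. Capitals mark the CG dinucleotides, 36 in KMT2A and 48 in KMT2B, where the median over tested genes was 26.
KMT2A (chr11:118436242-118436541, plus strand): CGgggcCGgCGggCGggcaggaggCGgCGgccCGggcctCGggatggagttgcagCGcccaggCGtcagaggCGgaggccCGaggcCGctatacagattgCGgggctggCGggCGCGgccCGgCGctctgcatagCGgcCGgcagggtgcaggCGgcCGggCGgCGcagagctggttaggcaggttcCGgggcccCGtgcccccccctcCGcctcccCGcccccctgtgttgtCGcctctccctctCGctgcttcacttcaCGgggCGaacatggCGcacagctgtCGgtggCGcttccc
KMT2B (chr19:35717753-35718052, plus strand): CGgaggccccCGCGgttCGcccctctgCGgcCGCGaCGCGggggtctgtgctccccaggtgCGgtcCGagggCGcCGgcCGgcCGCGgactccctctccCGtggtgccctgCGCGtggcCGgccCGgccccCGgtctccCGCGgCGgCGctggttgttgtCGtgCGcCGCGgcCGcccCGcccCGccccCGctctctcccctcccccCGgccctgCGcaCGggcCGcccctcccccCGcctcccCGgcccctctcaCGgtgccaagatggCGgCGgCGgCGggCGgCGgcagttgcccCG

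With GC content corrected, most of the rises among the members were no longer called and most of the falls were. In that fit 2 members were higher and 24 lower of 43, where the background was 28.6% higher and 22.6% lower, and the members' median log2 fold change was -0.28 against 0.04 over all genes. In the GC-corrected fit the rank correlation of fold change with GC content was 0.39 over the members and -0.01 over all tested genes. With transcript length it was -0.42 and -0.23. A trend with GC content and length thus remained among the members. Of the members, 18 were lower both with and without the correction. The share of all tested genes lower in both fits was not computed. KDM3A kept most of its fall, at -2.20 on the log2 scale (edgeR adjusted p = 5.06e-05), the deepest in this fit; with GC content taken from the longest transcript it was at -1.69, behind KDM5A at -1.86 and KDM7A at -1.74. EZH1 stood at -0.65 (adjusted p = 0.0002). KDM7A and KDM5A stood at -1.67 and -1.73. KMT2A, KDM6A, KDM5B, SETD7 and NSD1 lay between -1.22 and -0.92, and SETDB2, KDM1B, SETD6, KDM4C, KMT2C, SETD5, SETD2 and KMT2E between -0.89 and -0.38. The falls of KMT5B, NSD3 and SETD3 were no longer called (-0.03, -0.09 and 0.12), and EZH2 was left with -0.28 (adjusted p = 0.0402).

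Of the rises, KDM2A was the only one that passed in all 3 fits, at 0.58 with GC correction (edgeR adjusted p = 0.000849) and 0.86 with GC and length correction. EHMT2 came to 0.06 with GC correction (adjusted p = 0.243), and KMT2B and SETD1A to -0.11 and -0.07, none of which passed. With length corrected as well, all 3 were called higher again, at 0.20, 0.28 and 0.24 (adjusted p = 0.00638, 0.00558 and 0.00538). KMT2D, SETD1B, KDM2B, KDM4B and KDM5C, which were higher without correction, were called lower with it (log2 fold changes from -0.38 to -0.15). SETD9, not called without correction, was higher with it, at 0.73 (adjusted p = 0.00968).

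Correcting for length as well narrowed the difference between the members and all genes. In that fit 7 members were higher and 14 lower of 43, where the background was 28.1% and 22.1%, and the median was -0.08 against 0.03 over all genes. The rank correlation of fold change with GC content was still 0.43 over the members, against -0.01 over all genes. The 14 that were lower in all 3 fits were KDM3A, KDM7A, KDM5A, KDM6A, KDM1B, SETD6, KDM5B, KMT2A, SETD7, SETDB2, KDM4C, EZH1, EZH2 and KMT2C, of which 7 are demethylases, as are 17 of the 43 tested members. Their GC- and length-corrected log2 fold changes ran from -2.12 for KDM3A to -0.22 for KMT2C. SETD2 and NSD1, at -0.21 and -0.52, did not pass (adjusted p = 0.0818 and 0.0614), nor did KMT2E and SETD5. NSD3 passed in the other direction, at 0.23 (edgeR adjusted p = 0.0125). When the GC content came from the longest transcript in place of the one with the longest coding sequence, KDM1B, SETD6 and EZH2 were no longer called, and the other 11 still were. The shares of all tested genes that stayed lower through all 3 fits, or through these and the longest-transcript fit, were not computed.

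**Figure D4:**
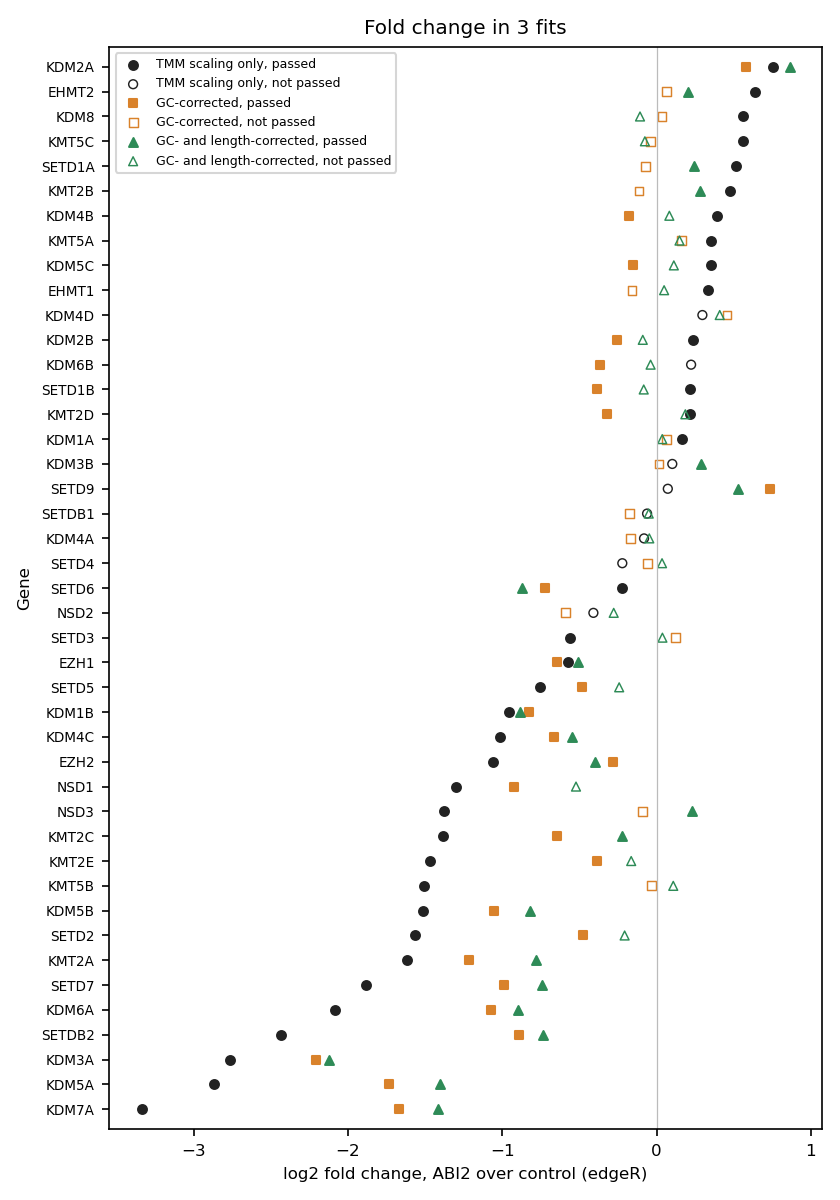
Log2 fold change of the 43 tested members in 3 edgeR fits: TMM scaling only (black circles), GC-corrected (orange squares), and GC- and length-corrected (green triangles); filled symbols passed an adjusted p of 0.05 and open ones did not. KDM3A, KDM5A and KDM7A stay far to the left in all 3, KDM2A stays to the right, and most black circles between 0.2 and 0.6 have orange squares near or under 0.

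NSD2 showed that a member's count and its length-scaled level can part. Its counts came to 164.3, 296.9 and 166.4 CPM in the controls and 151.2, 169.2 and 152.3 CPM with ABI2, and control library 2 stood apart (edgeR adjusted p = 0.172). Its TPM was 78.4, 75.4 and 74.3 in the controls and 46.7, 43.7 and 42.1 with ABI2, with all controls above all ABI2 libraries (limma on log2 of TPM plus 1, log2 difference -0.77, adjusted p = 6.41e-05). The ratio of a gene's count to its TPM is the transcript length that the deposited values imply, if both rest on the same assignment of reads. Whether they do was not given, so a change in the ratio need not be a change in length. Relative to the median gene of each library, it was 1.39, 2.51 and 1.47 for NSD2 in the controls and 1.96, 2.32 and 2.16 with ABI2, so that control library 2 lay with the ABI2 libraries and above the other 2 controls. Which transcripts were measured was not given in the sources used here.

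Implied length was tested in 41 members, and 1, NSD3, differed between the groups, where the background was 1.14% of genes. NSD3 had 1.99, 1.99 and 2.05 in the controls and 1.51, 1.52 and 1.45 with ABI2, a log2 difference of -0.43 (limma adjusted p = 0.0132), which did not overlap. Without control replicate 1 it no longer passed (adjusted p = 0.0509), and with the replicate number as a block no member passed. In 6 members the implied length varied over 1.5-fold between libraries with no group difference that passed. These were NSD1, NSD2, KMT2C, KDM2B, KDM3A and KDM5B, and the share of all genes that varied this much was not computed. KDM2B is an example, with 0.76 in control library 1 and 1.04 to 1.27 in the others.

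**Figure D5:**
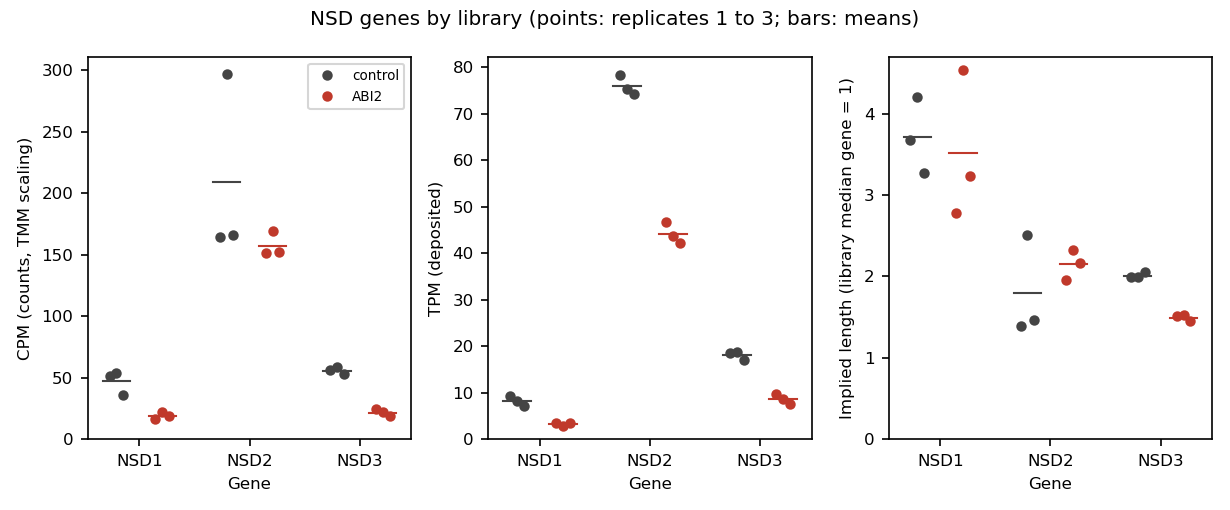
CPM, TPM and implied transcript length (library median gene set to 1) of NSD1, NSD2 and NSD3 by library; points are replicates 1 to 3 and bars are means, dark for control and red for ABI2. NSD2 in control library 2 is high in CPM and in implied length but not in TPM, and the implied length of NSD3 is lower in all 3 ABI2 libraries.

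The partners of these enzymes in their complexes were counted on lists chosen by function, and the log2 fold changes of named genes are given without and then with GC correction. The counts by list, here and below, rest on few genes. Over all tested genes 35.1% were higher and 38.0% lower, and with GC correction 28.6% and 22.6%. Of 9 PRC2 partners, 2 were higher and 7 lower, with a median log2 fold change of -0.62. Their median GC content was 41.6%, in GC bin 2 of 10, where 86.8% of all tested genes were lower. SUZ12, the scaffold that EZH1 and EZH2 need, fell from 36.8 ± 2.63 to 10.4 ± 1.54 CPM (SD, n = 3 each; log2 fold change -1.82, edgeR adjusted p = 2.52e-05). PHF19, which tethers the complex to chromatin, rose from 95.9 ± 3.70 to 147.2 ± 3.31 CPM. With GC correction the PRC2 partners came to 4 higher and 1 lower, SUZ12 did not pass (-0.09), and PHF19 was higher by 0.16.

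Of 13 partners of the COMPASS complexes, which hold the KMT2 and SETD1 enzymes, 7 were higher and 5 lower, and 5 and 1 with GC correction. MEN1 (menin, which binds KMT2A and KMT2B) was higher in both fits, at 0.68 and 0.14. PSIP1 was at -1.38 and, with correction, at 0.13, where it did not pass. Of 9 CoREST partners, 3 were higher and 5 lower, and 3 and 3 with GC correction. ZMYM2 fell by 3.05, and by 1.26 with GC correction, while HDAC2 fell from 152.1 ± 13.66 to 53.7 ± 4.60 CPM and was called higher, at a log2 fold change of 0.21, with GC correction. Of 9 H3K9 partners and HP1 proteins, 3 were higher and 6 lower, and 2 and 3 with GC correction. CBX5 (HP1 alpha) was at -1.39 and -0.06, where it did not pass, and was called higher, at 0.27, with GC and length correction. MPHOSPH8, a reader of H3K9 methylation, was lower in both fits, at -1.44 and -0.52.

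Enzymes of the same chemistry outside the naming rule gave mixed counts. Of 11 tested lysine methylases with other names, 5 were higher and 5 lower, and 3 and 3 with GC correction. MECOM was lower in both fits, at -2.71 and -2.09, while SUV39H2 was at -1.70 and, with correction, at -0.19, where it did not pass. Of 12 JmjC proteins with other names, 6 were higher and 4 lower, and 4 and 2 with GC correction. JMJD1C, the third paralog beside KDM3A and KDM3B, was at -2.90 without correction and -1.33 with GC correction, and JMJD8 was at 0.68 and 0.09, where it did not pass. Of 8 arginine methylases, 6 were higher and 2 lower, and 4 and 1 with GC correction. PRMT1 was higher in both fits, at 0.96 and 0.45, as was PRMT7, at 0.99 and 0.49.

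For the other histone marks, 3 of 10 acetylases were higher and 4 lower, and 0 and 5 with GC correction. KAT2B was at -2.46 and -1.59 and HAT1 at -2.08 and -0.29, lower in both fits. Of 13 deacetylases, not counting HDAC1 and HDAC2 of the CoREST list, 9 were higher and 3 lower, and 3 and 4 with GC correction. Their median GC content was 59.0%, in GC bin 8, where 70.0% of all tested genes were higher. HDAC9 had a GC content of 50.1% and a log2 fold change of -3.37 without and -3.39 with GC correction, and SIRT6 was higher in both fits, at 0.84 and 0.25. Of the 14 enzymes that make the methyl donor or handle oxoglutarate, 5 were higher and 5 lower, and 9 and 2 with GC correction. AHCY, which clears the product of every methyl transfer, rose from 182.5 ± 8.48 to 366.6 ± 15.41 CPM (edgeR adjusted p = 1.51e-05), and MTR fell from 44.7 ± 1.55 to 16.5 ± 2.12 CPM. With GC correction AHCY was at 0.58 and MTR at -0.70, and both passed.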

How the data were processed

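The authors deposited whole-number read counts, TPM values and FPKM values for each gene in 6 libraries, per the file headers; the counts carry no normalization. GRCh38, HISAT2 2.1.0, StringTie 1.3.3b, FastQC 0.11.2 and Trimmomatic are named in the submitters' processing notes. No step order, annotation, counter or strand setting was given there, so reads of overlapping genes cannot be told apart; 8 members overlap another gene. The members and lists were chosen with earlier results of these data known, and the paralog families after the fold changes were seen.

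Counts were fitted with edgeR 4.0.16 in R 4.3.3 (TMM, filterByExpr with a minimum count of 10, robust quasi-likelihood F test, Benjamini-Hochberg adjusted p under 0.05 over 13325 genes); the SE is the size of the log2 fold change over √F. GC content and length came from the GENCODE release 29 transcript with the longest coding sequence. The corrected fits took per-library natural splines with 5 degrees of freedom as offsets. The GC-corrected fit was tested on simulated data, and the GC- and length-corrected fit was not. Implied length was the count divided by the deposited TPM, centred on the library median, for genes with at least 50 counts in every library, tested with limma 3.58.1. DESeq2 1.42.0, voom, TPM and FPKM entered as alternatives. All members are named, and of each further list the 2 genes with the smallest p among those past the threshold. Replicate numbers were taken from the titles and do not pair the samples. 1 gene of the marker lists is not reported here.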

Additional observations from a re-analysis of the deposited data

How the results depend on the processing

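The number of members called lower was 20 to 24 under every alternative except the GC and length correction, which gave 14, and DESeq2 size factors, the DESeq2 Wald test, voom and no filter on low counts left 14 members higher and 21 lower. The genes behind these numbers changed. Of the 21, 18 stayed lower with GC correction, 14 with GC and length correction and 16 with GC content of the longest transcript. The replicate block with GC correction kept 17. The 24 lower with GC correction included 5 that were called higher without it. The number called higher was less stable: 8 with library size alone and with log2 TPM at a pseudocount of 1 or 0.1, 2 with GC correction, 7 with GC and length correction, 2 with GC content of the longest transcript (an alternative chosen after seeing the data), and 10 to 12 on leaving out one replicate. With GC correction, leaving out one replicate gave 2 higher and 20 to 24 lower. Same-numbered libraries did not deviate together (correlations of 0.022, 0.018 and 0.061), so the numbers are not taken to pair them; a replicate block gave 12 higher and 20 lower, and the replicate block with GC correction gave 2 and 23. Members with a changed implied length numbered 1 to 2 without one replicate and 0 with the replicate block. Values that changed sign follow as log2 fold changes, and apart from the settings' own construction the cause was not tested.

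With GC correction: EHMT1 -0.16, KDM2B -0.25, KDM4B -0.18, KDM5C -0.15, KDM6B -0.36, KMT2B -0.11, KMT2D -0.32, KMT5C -0.04, SETD1A -0.07, SETD1B -0.38 and SETD3 0.12. With the replicate block and GC correction: EHMT1 -0.17, KDM2B -0.25, KDM4B -0.18, KDM5C -0.15, KDM6B -0.38, KMT2B -0.11, KMT2D -0.33, KMT5C -0.04, SETD1A -0.07, SETD1B -0.38 and SETD3 0.12. With GC and length correction: KDM2B -0.09, KDM6B -0.04, KDM8 -0.11, KMT5B 0.11, KMT5C -0.08, NSD3 0.23, SETD1B -0.08, SETD3 0.04 and SETD4 0.04. With GC content of the longest transcript: EHMT1 -0.03, KDM1A -0.01, KDM1B 0.26, KDM2B -0.28, KDM3B -0.06, KDM4B -0.19, KDM5C -0.08, KDM6B -0.37, KMT2B -0.12, KMT2D -0.33, KMT5C -0.04, NSD2 0.10, SETD1A -0.07, SETD1B -0.37 and SETD6 0.09. With TPM at a pseudocount of 1 and of 0.1: KDM2B -0.05 and -0.05, KDM3B -0.15 and -0.16, SETD9 -0.12 and -0.14. With library size alone SETD9 was at -0.02, and without one replicate it ran from -0.04 to 0.21. Depth limits the low members most: KDM4D, at about 1 CPM, and KDM7A with ABI2 rest on few counts.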
